A study of Mus musculus with 28 samples.

Results

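Small nucleolar RNAs (snoRNAs), Cajal body RNAs, the 7SK RNA and spliceosomal snRNAs were followed across 28 RNA-seq libraries of a mouse cranial neural crest cell line. Genes were chosen by name and by measured abundance: a deposited symbol of one of these families and a sum of at least 28 raw counts over the 28 libraries. Of 54429 genes in the count table, 41 met both conditions. They were 22 box C/D snoRNAs, 15 box H/ACA snoRNAs, 2 Cajal body RNAs (Scarna2 and Scarna13), the 7SK gene Rn7sk, and Rnu5g, a U5 snRNA gene. Just inside the threshold lay Snord71 with 32 counts and Snora62 with 33, and just outside it lay Snord42a with 18. Snora20 had 29 counts but no deposited symbol and was not a member. The median member had 88 counts in all 28 libraries together, so most values rest on a handful of reads per library.

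Box C/D snoRNAs guide methylation of ribosomal and spliceosomal RNA, and box H/ACA snoRNAs guide conversion of uridine to pseudouridine; most vertebrate snoRNAs are cut out of introns of host genes, many of which encode ribosomal proteins or translation factors. Cajal body RNAs do the same for spliceosomal RNAs. The 7SK RNA, made by RNA polymerase III, holds the elongation kinase P-TEFb in an inactive particle with Larp7, Mepce and Hexim proteins. None of these mature RNAs carries a poly(A) tail, and the labels list the sequenced molecule as polyA RNA. The values are therefore relative signals within these libraries and not cellular amounts.

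O9-1 is an established line of mouse cranial neural crest cells, the cells that form much of the face and palate. The libraries form 8 groups, 4 libraries in each at 21% O2 (the Norm groups) and 3 in each at 0.5% O2 (the Hypo groups). Prolif cells were kept in STO-conditioned medium with serum, bFGF and LIF. Osteo cells had 10 days in osteoblast medium with beta-glycerophosphate, dexamethasone and BMP-2. Chondr cells had 3 days in that medium and then 7 days as micromasses on Matrigel with insulin-transferrin-selenium, dexamethasone, TGF-beta3 and BMP-2. SM cells had 3 days in DMEM with serum, meant to give smooth muscle. All groups share 1 cell line, the labels do not say whether replicates were separate cultures, and p-values measure only the spread between these libraries.

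Library totals ran from 19.9 M to 64.7 M counts. The Hypo_SM libraries stood apart. The mitochondrial ribosomal RNAs mt-Rnr1 and mt-Rnr2 took 12.4% ± 0.849 (SD, n = 3) of their counts and at most 0.0889% of any other library, and their TMM scaling factors were 0.505 to 0.533 against 0.901 to 1.29 elsewhere. The smooth muscle actin gene Acta2 averaged 20.9 ± 8.28 CPM (counts scaled to a common library total, here with TMM factors) in Hypo_SM, 3254 ± 213 in Norm_SM and 29.4 ± 3.79 in Hypo_Prolif, so the label of smooth muscle was not matched by this marker in Hypo_SM. Tagln, another smooth muscle gene, averaged 13.1 CPM there and 293 in Norm_SM, and Cnn1 and Myh11 averaged 0.309 and 0.583 CPM there. Blood, endothelial and epithelial markers stood at 2.38 CPM or less in Hypo_SM: Hbb-bs at 0, Cdh5 at 0.0309, Ptprc at 0.0926, Epcam at 0.162, Krt8 at 0.576 and Pecam1 at 2.38 CPM. Krt8 was higher there than in any other group, with 0.158 CPM in Norm_SM and 0.275 in Hypo_Prolif. Pecam1 was above Norm_SM (0.833 CPM) and Hypo_Prolif (0.893 CPM) and below Hypo_Chondr (6.38 CPM). Osteoblast markers other than Runx2 were uneven in Norm_Osteo. Sp7, an osteoblast transcription factor, stood at 1.15, 0.670, 1.36 and 45.4 CPM in the 4 libraries, beside means of 0.149 ± 0.0298 in Norm_Prolif, 96.7 ± 0.374 in Hypo_Osteo and 170 ± 44.8 in Norm_Chondr. Alpl, the alkaline phosphatase gene, stood at 1.61, 2.52, 1.39 and 40.0 CPM, beside 0.0331 ± 0.0663, 74.6 ± 7.66 and 265 ± 99.3. Ibsp, a bone matrix gene, averaged 1.13 ± 1.38 CPM in Norm_Osteo, 69.6 ± 6.21 in Hypo_Osteo and 1173 ± 553 in Norm_Chondr, and was at 0 in Norm_Prolif. Replicate 4 was thus the highest of its group for all 3, and for Bglap at 0.448 CPM. Runx2, an osteoblast transcription factor, went the other way, at 59.6, 69.1, 68.2 and 57.1 CPM, lowest in replicate 4. It averaged 63.5 ± 6.04 CPM in Norm_Osteo and 63.9 ± 3.93 in Norm_Prolif. Acta2 averaged 3227 ± 626 CPM in Norm_Osteo. Norm_Osteo replicate 4 also stood apart over all genes: the chi-square per degree of freedom was 91.1 to 97.1 against the other 3 libraries, which gave 2.89 to 3.88 among themselves. Its mitochondrial ribosomal RNA share was 0.0297%, and theirs was 0.0475% to 0.0514%. How far the composition of these libraries bears on the members was not tested.

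The sequences below belong to some of the members on which the results turn, as spliced RNA written in DNA letters from the GENCODE M21 annotation of GRCm38 (mm10). First come 3 RNAs that were highest in Hypo_SM. In the box C/D RNAs, capitals mark the sequence TGATGA, a form of box C, and the last CTGA, box D. In the H/ACA RNAs they mark the ACA that stands 3 bases before the 3′ end (2 in Snora17). In Rn7sk, of which bases 1 to 110 of 331 are shown, they mark each GATC.
Rn7sk: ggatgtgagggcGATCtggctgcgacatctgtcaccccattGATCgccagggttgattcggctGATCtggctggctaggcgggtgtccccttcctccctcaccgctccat
Snord104: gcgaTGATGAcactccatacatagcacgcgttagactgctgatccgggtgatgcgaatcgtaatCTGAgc
Snora78: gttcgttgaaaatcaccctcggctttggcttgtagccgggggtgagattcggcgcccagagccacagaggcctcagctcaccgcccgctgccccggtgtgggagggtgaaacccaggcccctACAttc
The RNAs that were highest outside Hypo_SM in normoxic proliferating cells follow, with Snora73a, whose sequence matches Snora73b at 198 of 205 aligned positions (96.6%). Reads may be split between those 2 genes, so their separate values are uncertain.
Snora57: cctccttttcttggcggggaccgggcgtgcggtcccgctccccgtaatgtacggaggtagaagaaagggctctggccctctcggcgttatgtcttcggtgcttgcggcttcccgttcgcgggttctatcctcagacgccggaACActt
Snora31: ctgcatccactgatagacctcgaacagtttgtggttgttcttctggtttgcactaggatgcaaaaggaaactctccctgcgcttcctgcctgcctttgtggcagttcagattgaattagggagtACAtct
Snora73b: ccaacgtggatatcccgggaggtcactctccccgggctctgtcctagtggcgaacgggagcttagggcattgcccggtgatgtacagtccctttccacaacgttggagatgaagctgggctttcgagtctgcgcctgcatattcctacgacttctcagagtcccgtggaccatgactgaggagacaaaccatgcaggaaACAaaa
Snora73a: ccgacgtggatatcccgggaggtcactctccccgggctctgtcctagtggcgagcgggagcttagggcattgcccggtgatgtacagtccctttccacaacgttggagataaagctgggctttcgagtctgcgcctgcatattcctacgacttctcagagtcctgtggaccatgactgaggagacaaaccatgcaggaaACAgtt
Snora17: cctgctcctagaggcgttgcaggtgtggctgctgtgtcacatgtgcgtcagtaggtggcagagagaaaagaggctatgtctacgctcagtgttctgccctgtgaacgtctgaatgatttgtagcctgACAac
Snord49a: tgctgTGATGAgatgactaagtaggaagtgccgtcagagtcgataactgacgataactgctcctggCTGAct

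Rn7sk lies on the minus strand at chr9:78175303-78175633, and Snora57 at chr19:8888538-8888685 outside any same-strand host. Snora31 lies at chr14:75847905-75848034 within Tpt1, and Snora73b at chr4:132352322-132352526 within Rcc1 and Snhg3. Of the 41 members, 35 lie within a gene on the same strand, with 28 distinct hosts, and 12 members lie in 9 ribosomal protein genes. Where several genes hold a member, the gene with the most counts was taken as its host. The sequence TGATGA followed by CTGA was found in 14 of 22 box C/D members and in 24.0% of the 1507 annotated snoRNA genes, searched on the RNA strand. An ACA 3 bases before the end was found in 13 of 15 H/ACA members and in 18.3% of annotated snoRNA genes. GATC, which reads the same on both strands, stood 3 times in the first 110 bases of Rn7sk, and 1.46% of 1913 annotated short noncoding RNAs of that length or more held it 3 times or more in the same window. Of all members, 5 overlap a same-strand exon of another gene, among them Snord42b with Rpl23a and Scarna13 with Snhg10. Another 3, Snora73b, Snora73a and Snord4a, overlap an exon on the opposite strand. The strand setting is not given in the sources used here, so reads from that strand may be among their counts.

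Outside Hypo_SM, Rn7sk was lowest in Norm_Prolif and Norm_Chondr and highest in the 2 groups labelled Osteo. The 4 Norm_Prolif libraries had 156, 279, 84 and 85 Rn7sk counts (3.43 ± 0.665 CPM). Norm_Chondr had 97, 92, 70 and 153 counts (3.69 ± 1.35 CPM), and the 2 groups overlapped. Norm_Osteo had 196, 234, 264 and 147 counts (7.43 ± 2.10 CPM), and Norm_SM had 192, 221, 205 and 204 counts (5.93 ± 0.0321 CPM). Every Norm_Osteo and every Norm_SM library lay above all 4 Norm_Prolif libraries on the CPM scale. Against Norm_Prolif, Rn7sk rose by 1.16 on the log2 scale in Norm_Osteo (SE 0.23, edgeR adjusted p = 0.00102) and by 0.83 in Norm_SM (SE 0.15, edgeR adjusted p = 0.000107). Without Norm_Osteo replicate 4, the lowest of its group, the rise was 1.28 (edgeR adjusted p = 9.95e-06). In Norm_Chondr the log2 difference was 0.17 (SE 0.25, edgeR adjusted p = 0.543), and -0.08 without Norm_Chondr replicate 4. Other RNAs differed in these comparisons too, also in Norm_Chondr, where Rn7sk did not pass. The mitochondrial ribosomal RNA mt-Rnr1 was 0.52 higher in Norm_Osteo (SE 0.16, libraries overlapping), 1.03 in Norm_SM (SE 0.07) and 0.92 in Norm_Chondr (SE 0.09). The mitochondrial ribosomal RNA mt-Rnr2 was 1.17 higher in Norm_Osteo (SE 0.16), 1.52 in Norm_SM (SE 0.07) and 1.23 in Norm_Chondr (SE 0.10), and the nuclear RNA Malat1 was 1.42 (SE 0.24), 0.94 (SE 0.11) and 1.00 (SE 0.19) higher. Their part in the result was not tested.

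At 0.5% O2, Hypo_Prolif had 175, 154 and 132 counts (5.25 ± 0.635 CPM), Hypo_Chondr 137, 179 and 115 (5.08 ± 1.73 CPM), and Hypo_Osteo 198, 311 and 374 (10.5 ± 2.76 CPM). Rn7sk was 0.66 higher on the log2 scale in Hypo_Prolif than in Norm_Prolif (SE 0.18, edgeR adjusted p = 0.00461), although fitting all 8 groups together gave an adjusted p of 0.0619. In the same comparison mt-Rnr1 was 2.00 higher (SE 0.05), mt-Rnr2 1.60 (SE 0.05) and Malat1 1.26 (SE 0.09), and their part in the result was not tested. Rn7sk rose by 1.00 from Hypo_Prolif to Hypo_Osteo (SE 0.19, edgeR adjusted p = 0.000212). There the log2 differences were -0.18 for mt-Rnr1 (SE 0.07), 0.44 for mt-Rnr2 (SE 0.07) and 0.46 for Malat1 (SE 0.17, libraries overlapping). The order of the groups outside Hypo_SM, from low to high, was Norm_Prolif, Norm_Chondr, Hypo_Chondr, Hypo_Prolif, Norm_SM, Norm_Osteo and Hypo_Osteo. Norm_Prolif and Norm_Chondr did not pass the test against each other, and neither did Hypo_Chondr and Hypo_Prolif (log2 difference -0.06, SE 0.23) or Norm_Osteo and Hypo_Osteo (0.50, SE 0.26).

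**Figure D1:**
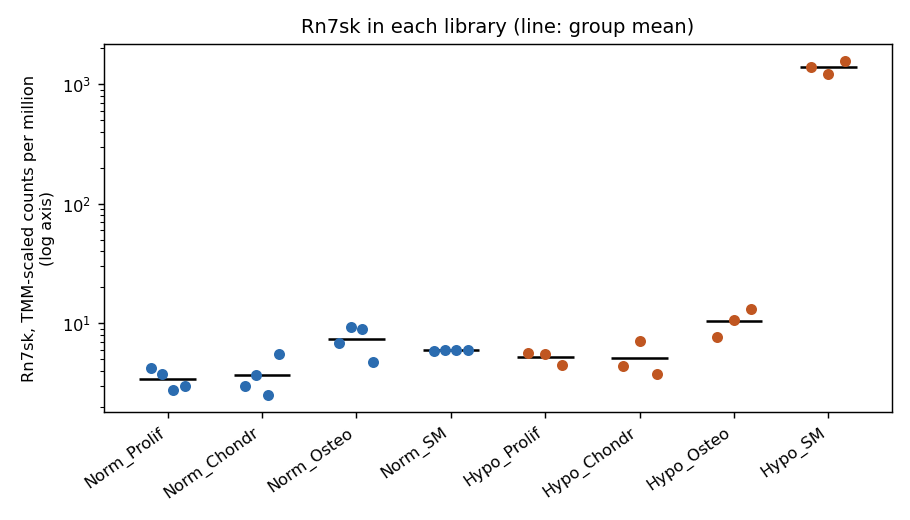
Rn7sk in each library, as TMM-scaled CPM on a log axis. Points are libraries (blue 21% O2, orange 0.5% O2) and lines are group means; the 3 Hypo_SM libraries average 1396 and every other group averages between 3.43 and 10.5.

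In Hypo_SM the 3 libraries held 18670, 12175 and 17011 Rn7sk counts (1396 ± 181 CPM), while the other 25 held 70 to 374. No library of another group came near them. The difference was 8.17 on the log2 scale against Hypo_Prolif (SE 0.14) and 7.94 against Norm_SM (SE 0.11). Scaled by library size alone it was 6.90 and 6.57. Because Rn7sk was singled out for its level in Hypo_SM, these values are a description and no test is attached. Rn7sk made up 95.1% of all member counts in Hypo_SM, against 17.4% in Norm_Prolif and 70.1% in Hypo_Osteo. Its share of all counts in Hypo_SM was 0.0724% ± 0.0103. In the authors' deposited table the log2 fold change of Rn7sk was 8.19 against Hypo_Prolif and 7.95 against Norm_SM.

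Of 7 genes for the 7SK particle and P-TEFb, 1 was higher and 4 were lower in Hypo_SM than in Norm_SM, and 1 and 4 against Hypo_Prolif. Among all genes 40.2% and 36.2% were lower in these comparisons. With library size alone all 7 were lower in both, under a scaling in which 15.6% and 15.0% of all calls were higher. Hexim1, which inhibits the kinase, was 1.43 lower than in Norm_SM on the log2 scale (SE 0.22, edgeR adjusted p = 4.73e-05). Against Hypo_Prolif its difference was 0.09 (SE 0.25, edgeR adjusted p = 0.753). Mepce, which caps 7SK, was 1.20 lower than in Norm_SM (SE 0.12), and Larp7, which binds its 3′ end, was 0.50 lower (SE 0.15). Cdk9, the kinase of P-TEFb, was 0.88 higher (SE 0.11), but 0.48 lower when scaled by library size alone. Of 23 genes of RNA polymerase III and its factors, 6 were higher and 12 lower in Hypo_SM than in Norm_SM, beside 35.4% and 40.2% of all genes. Brf1, a subunit of TFIIIB, was 1.68 lower (SE 0.11), Polr3c, a polymerase subunit, was 2.05 higher (SE 0.10), and Snapc2, part of the complex that starts 7SK transcription, was 1.82 higher (SE 0.12). Scaled by library size, 2 of the 23 were higher and 20 lower, where 15.6% of all calls were higher.

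Outside Hypo_SM, the summed snoRNAs were highest in normoxic proliferating cells. In these bulk libraries, a lower sum from fewer cells with the RNA and one from less RNA per cell cannot be told apart. The summed box H/ACA members reached 9.94 ± 1.60 CPM in Norm_Prolif, 3.33 ± 1.34 in Norm_Chondr, 1.45 ± 0.263 in Norm_Osteo and 2.09 ± 0.645 in Norm_SM. At 0.5% O2 they reached 4.28 ± 0.361 in Hypo_Prolif, 2.53 ± 0.541 in Hypo_Chondr and 1.71 ± 0.577 in Hypo_Osteo. The lowest Norm_Prolif library, at 7.81 CPM, lay above the highest of these other groups, at 4.88 CPM. The summed box C/D members went from 6.46 ± 0.533 CPM in Norm_Prolif to between 2.56 and 3.54 CPM in the other 6 groups outside Hypo_SM. Snora31, Snora57 and Snord49a were higher in all 4 Norm_Prolif libraries than in each of the 21 others outside Hypo_SM. That is 3 of 41 members (7.32%), and 12.1% of the 19470 genes with at least 28 counts did the same. With library size alone it was 4 of 41 members, Snora73b added, against 13.9% of genes, so the count of members was not above the background.

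**Figure D2:**
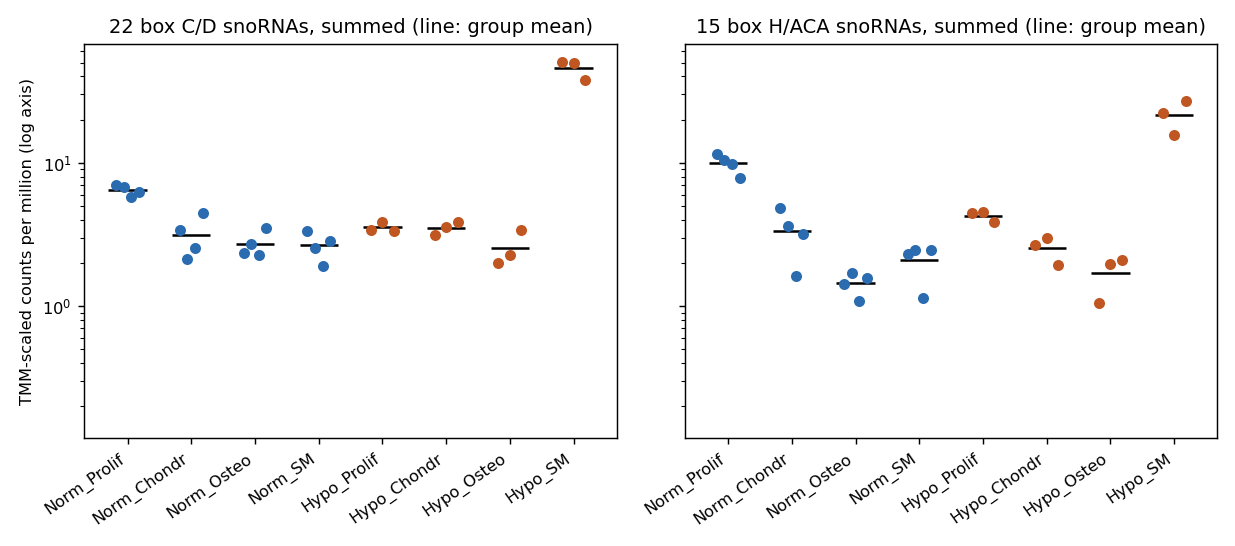
Summed box C/D (left) and box H/ACA (right) snoRNAs in each library, as TMM-scaled CPM on a shared log axis; points are libraries and lines are group means. Hypo_SM is highest in both panels, and Norm_Prolif is the highest of the other groups, with H/ACA at 9.94 against 1.45 to 4.28.

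Snora57, an H/ACA RNA, had 165, 239, 81 and 79 counts in Norm_Prolif (3.28 ± 0.809 CPM) and 11, 16, 12 and 26 in Norm_SM (0.468 ± 0.198 CPM). It fell by 2.75 on the log2 scale in Norm_SM (SE 0.29, edgeR adjusted p = 3.13e-07), by 2.31 in Norm_Osteo (SE 0.27) and by 1.28 in Norm_Chondr (SE 0.35). Snora31 had 72, 155, 63 and 46 counts in Norm_Prolif and 5, 2, 2 and 5 in Norm_Osteo, where the groups did not overlap. It fell there by 3.90 (SE 0.31), by 1.90 in Norm_Chondr (SE 0.43) and by 1.51 in Norm_SM (SE 0.30). Snora73b had 64, 160, 59 and 30 counts in Norm_Prolif and 4, 4, 5 and 3 in Norm_Osteo. It fell by 3.54 in Norm_Osteo (SE 0.34), by 2.61 in Norm_SM (SE 0.40) and by 1.39 in Norm_Chondr (SE 0.43), although Norm_Chondr overlapped Norm_Prolif there.

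Snord49a, a box C/D RNA, had 37, 76, 28 and 33 counts in Norm_Prolif (1.03 ± 0.0954 CPM) and 13, 6, 1 and 2 in Norm_SM. It fell by 2.61 in Norm_SM (SE 0.49), by 2.34 in Norm_Osteo (SE 0.54) and by 1.80 in Norm_Chondr (SE 0.45). Snora17 fell by 1.96 in Norm_Osteo (SE 0.47), by 1.49 in Norm_Chondr (SE 0.50) and by 1.19 in Norm_SM (SE 0.37). The other box C/D RNAs with enough counts did not pass. Snord104 had 69, 120, 33 and 57 counts in Norm_Prolif and log2 differences of -0.44, -0.64 and -0.42 in Norm_Chondr, Norm_Osteo and Norm_SM. In Norm_Osteo it passed with library size alone (edgeR adjusted p = 0.0396), without Norm_Prolif replicate 3, and without Norm_Osteo replicate 4 (-0.95, edgeR adjusted p = 0.0104). In Norm_Chondr it passed without Norm_Chondr replicate 4 (-0.85, edgeR adjusted p = 0.0301). Snord55 had 27, 49, 10 and 5 counts in Norm_Prolif and differences of -0.51, -0.55 and -0.84. It was called lower in Norm_SM without Norm_Prolif replicate 4, and averaged at least 10 counts in Norm_Prolif only.

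These 3 comparisons share the Norm_Prolif libraries. In each of them 8 of the 41 members had enough counts to be tested. In Norm_Chondr 0 were called higher and 5 lower, where 37.7% and 37.2% of all genes tested were called higher and lower. In Norm_Osteo 1 was higher and 5 lower (all genes 40.9% and 37.8%), and in Norm_SM 1 was higher and 5 lower (all genes 40.8% and 38.9%). The higher member was Rn7sk in both. Between 3 and 5 of the 8 averaged at least 10 counts in only 1 of the 2 groups, and such a member could pass the filter through Norm_Prolif alone, so its fold change is a description and no p is given for it. In Norm_Osteo that holds for 4 of the 5 lower members. The counts of lower members and the median over the 8 are therefore a description too and support nothing further. The median log2 change of the 8 was -1.34 in Norm_Chondr, -2.13 in Norm_Osteo and -1.35 in Norm_SM, and that of all genes tested was -0.0029, 0.07 and 0.03.

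**Figure D3:**
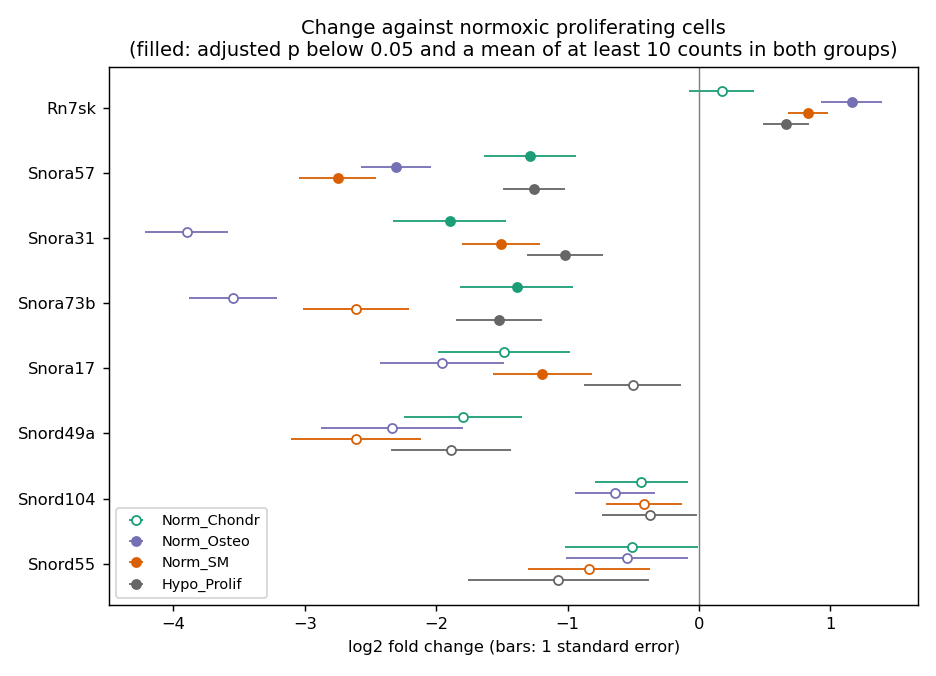
Log2 fold changes against normoxic proliferating cells for the 8 members tested in the 3 normoxic comparisons, with Hypo_Prolif added; bars are 1 standard error and filled points have an adjusted p below 0.05 and a mean of at least 10 counts in both groups. Every snoRNA shown lies left of 0 in all 4 comparisons, and Rn7sk lies at 0.17 to 1.16.

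Most genes of the snoRNA machinery were lower in the same comparisons, in which 37.2%, 37.8% and 38.9% of all genes tested were. All 8 core proteins of box C/D and H/ACA particles were lower in Norm_Chondr, Norm_Osteo and Norm_SM than in Norm_Prolif, with median log2 changes of -1.44, -2.30 and -2.34. In Norm_SM, Nop56, a scaffold of box C/D particles, fell by 2.88 (SE 0.08, edgeR adjusted p = 4.46e-14). Dkc1, the pseudouridine synthase, fell by 2.74 (SE 0.08) and the methyltransferase gene Fbl by 2.34 (SE 0.08). Of 11 assembly factors, 11, 10 and 9 were lower and 0 were higher. Of the hosts tested, 18 of 27, 20 of 26 and 20 of 27 were lower in Norm_Chondr, Norm_Osteo and Norm_SM, and 2, 2 and 4 were higher. Of the 9 ribosomal protein hosts, 7, 9 and 8 were lower and 0 were higher. Individual pairs differed in direction. Snora73b lies within both Snhg3 and Rcc1, a chromatin-bound exchange factor, and Rcc1 was taken as its host only for its higher counts. Snora73b and Rcc1 fell together in Norm_SM, where Rcc1 fell by 3.09 (SE 0.09). Snora31 and its host Tpt1 were both lower in Norm_Chondr, where Tpt1 fell by 0.24 (SE 0.07), and in Norm_Osteo, where it fell by 1.01 (SE 0.07). In Norm_SM Snora31 fell while Tpt1 was 0.15 higher (SE 0.06, edgeR adjusted p = 0.028). Snord49a fell in all 3 comparisons while its noncoding host 2410006H16Rik was higher, by 1.02 in Norm_Chondr, 0.58 in Norm_Osteo and 0.51 in Norm_SM.

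In proliferating cells 4 snoRNAs were lower at 0.5% than at 21% O2. Snora57 had 37, 42 and 37 counts in Hypo_Prolif (1.33 ± 0.161 CPM) and was 1.25 lower than in Norm_Prolif on the log2 scale (SE 0.24, edgeR adjusted p = 0.000363). Snord49a was 1.89 lower (SE 0.46), Snora73b 1.52 lower (SE 0.33) and Snora31 1.02 lower (SE 0.29), and for these 4 the libraries of the groups did not overlap. Snora17 was at -0.50 (SE 0.37) and Snord17 at -1.24 (SE 0.53), and neither passed. Snord17 did pass with library size alone, without Norm_Prolif replicate 4 and without Hypo_Prolif replicate 2. Of 10 members tested, 1 was higher and 4 lower, where 33.1% and 32.3% of all genes were. Of these 10, 4 averaged at least 10 counts in Norm_Prolif only, Snord49a and Snord17 among them, and their fold changes and these counts are a description. Again all 8 core snoRNA proteins were lower, with a median of -1.35, and so were 9 of 11 assembly factors, beside the same 32.3% of all genes. The hosts did not share that direction. Of 27 tested, 8 were higher and 10 lower, and of the 9 ribosomal protein hosts 5 were higher and 0 lower, beside 33.1% and 32.3% of all genes. Tpt1, host of Snora31, was 0.44 higher (SE 0.05), and Rcc1, taken as host of Snora73b, was 1.77 lower (SE 0.10).

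Within 0.5% O2, Snora57 fell from Hypo_Prolif to Hypo_Osteo by 1.24 on the log2 scale (SE 0.39, edgeR adjusted p = 0.0104). Its counts were 37, 42 and 37 in Hypo_Prolif and 9, 17 and 21 in Hypo_Osteo. The log2 differences of Snora17, Snora31 and Snora73b were -2.13 (SE 0.61), -1.80 (SE 0.54) and -1.77 (SE 0.55). These 3 averaged at least 10 counts in Hypo_Prolif only, so their values are a description. The call of Snora31 was lost without Hypo_Prolif replicate 2 and that of Snora73b without replicate 3. Of 7 members tested there, 1 was higher and 4 lower (all genes 36.2% and 35.1%), counts that are likewise a description. From Hypo_Prolif to Hypo_Chondr, 0 of 6 tested members were called higher and 1 lower (all genes 34.9% and 34.6%). That was Snora31, with 22, 37 and 21 counts in Hypo_Prolif and 9, 8 and 5 in Hypo_Chondr, a log2 difference of -1.84 (SE 0.49) that is again a description. Within chondrocyte medium 0 of 5 tested members differed between oxygen levels (all genes 10.4% higher and 11.8% lower), with 0 at an unadjusted p under 0.05 in edgeR and 0 called by DESeq2. Within osteoblast medium 0 of 4 tested members differed (all genes 27% higher and 27.3% lower), with the same 2 counts at 0. Without Hypo_Osteo replicate 1, Snord55 was called higher there (1.67, against 1.19 with it); it averaged at least 10 counts in Hypo_Osteo only. The 9 ribosomal protein hosts were all higher in Hypo_Osteo than in Norm_Osteo, by 0.43 to 1.41 on the log2 scale. The results for the members do not show that the levels were alike: the standard errors of the log2 differences ran from 0.26 to 0.69.

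The 40 members other than Rn7sk summed to 71.1 ± 5.10 CPM in Hypo_SM, 16.5 ± 1.99 in Norm_Prolif, 7.93 ± 0.561 in Hypo_Prolif and 4.87 ± 1.22 in Norm_SM. Scaled by library size alone the sums were 36.9 ± 3.59, 19.3 ± 2.21, 9.17 ± 0.719 and 6.24 ± 1.54 CPM. In 15 of 41 members (36.6%) all 3 Hypo_SM libraries lay above the other 25, as they did in 14.7% of genes with at least 28 counts. The 15 include Rn7sk, chosen for its level in Hypo_SM, and Rnu5g and Snord110, which are members only through it, so the count is a description and supports nothing further. With library size alone it was 8 members (19.5%) and 6.2% of genes: Rn7sk, Rnu5g, Scarna2, Snora17, Snora78, Snord104, Snord42b and Snord55, likewise a description.

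Snord55 had 340, 211 and 126 counts in Hypo_SM (19.4 ± 7.06 CPM) and 4, 11, 11 and 11 in Norm_SM (0.264 ± 0.0953 CPM). Its log2 difference was 6.23 against Norm_SM (SE 0.33) and 6.51 against Hypo_Prolif (SE 0.53). Snora78 had 58, 15 and 41 counts against 1, 4, 1 and 0 in Norm_SM, a log2 difference of 6.14 (SE 0.70). Its host Snhg9 was not tested for want of counts. Snord104 had 196, 156 and 176 counts (15.5 ± 0.801 CPM) against 47, 44, 23 and 50 in Norm_SM (1.19 ± 0.368 CPM), a difference of 3.77 (SE 0.25, edgeR adjusted p = 2.88e-09). Snora17 had 68, 29 and 56 counts against 10, 11, 6 and 15, a difference of 3.90 (SE 0.44).

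Snora57 had 37, 46 and 52 counts in Hypo_SM and 37, 42 and 37 in Hypo_Prolif, and was 1.72 higher on the log2 scale (SE 0.36, edgeR adjusted p = 0.00119). With library size alone its difference was 0.45 and the adjusted p 0.267. Snora73b was likewise 1.79 higher (SE 0.48) and 0.52 with library size alone (adjusted p = 0.321). Snord49a had 18, 13 and 2 counts in Hypo_SM, and its log2 difference was 1.94 against Hypo_Prolif (SE 0.84) and 2.60 against Norm_SM (SE 0.82), where the libraries overlapped. It averaged at least 10 counts in Hypo_SM only, so both values are a description. Snord7, Snord35a, Snora47 and Snora73a had 0 counts in Hypo_SM, which allows up to 0.0878 TMM-scaled CPM each over the 3 libraries, counting error only. Snora73a had 57 counts in Norm_Prolif.

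Both Cajal body RNAs, which guide modification of spliceosomal RNAs, and the U5 gene were highest in Hypo_SM. Scarna2 had 19, 19 and 15 counts there and 2, 3, 1 and 3 in Norm_SM, a log2 difference of 4.55 (SE 0.62). Scarna13 had 7, 2 and 7 counts and 1, 5, 0 and 0, and was too low to be tested. Rnu5g had 31, 10 and 17 counts in Hypo_SM and 0 in every Norm_SM and Hypo_Prolif library. Against the limit of 3 counts over each of these groups it was at least 78.5-fold higher than Norm_SM and at least 49.7-fold higher than Hypo_Prolif, and with library size alone at least 31.8-fold and 22.3-fold. Rnu5g and Snord110 reach the count threshold only through Hypo_SM. Snord110, encoded in an intron of Nop56, had 37 counts in Hypo_SM, 31 of them in replicate 2, and 0 in Norm_SM.

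The members differed widely in how much of their signal came from Hypo_SM. For the median member 13.8% of all counts were in these 3 libraries. The share was over 50% for 7 members: 91.5% for Rn7sk, 85.3% for Rnu5g, 68.7% for Snord55, 64.9% for Snord110, 56.4% for Snora78, 52.5% for Snora21 and 51.0% for Scarna2. At the other end, Snora23, in an intron of the import receptor gene Ipo7, had 3 counts in Hypo_SM and 114 in the other 25 libraries. Snora30, in Srcap, had 3 and 95, Snord123, in Snhg18, had 5 and 115, and Snord91a, in Tsr1, had 1 and 38. Members of 1 host also parted: in Rpl13a, Snord32a had 13 counts in Hypo_SM and Snord35a had 0, and in Kansl2, Snora34 had 41 and Snora2b had 5, although both overlap an exon of that host and its reads may be among their counts. In Rpl3, Snord83b had 47 counts in Hypo_SM and Snord43 had 11, against 131 and 62 elsewhere. Snord42b in Rpl23a had 24, 28 and 20 counts in Hypo_SM and 0, 4, 4 and 1 in Norm_SM (log2 difference 5.01, SE 0.69). It overlaps an exon of that host, so reads of Rpl23a may be among its counts.

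**Figure D4:**
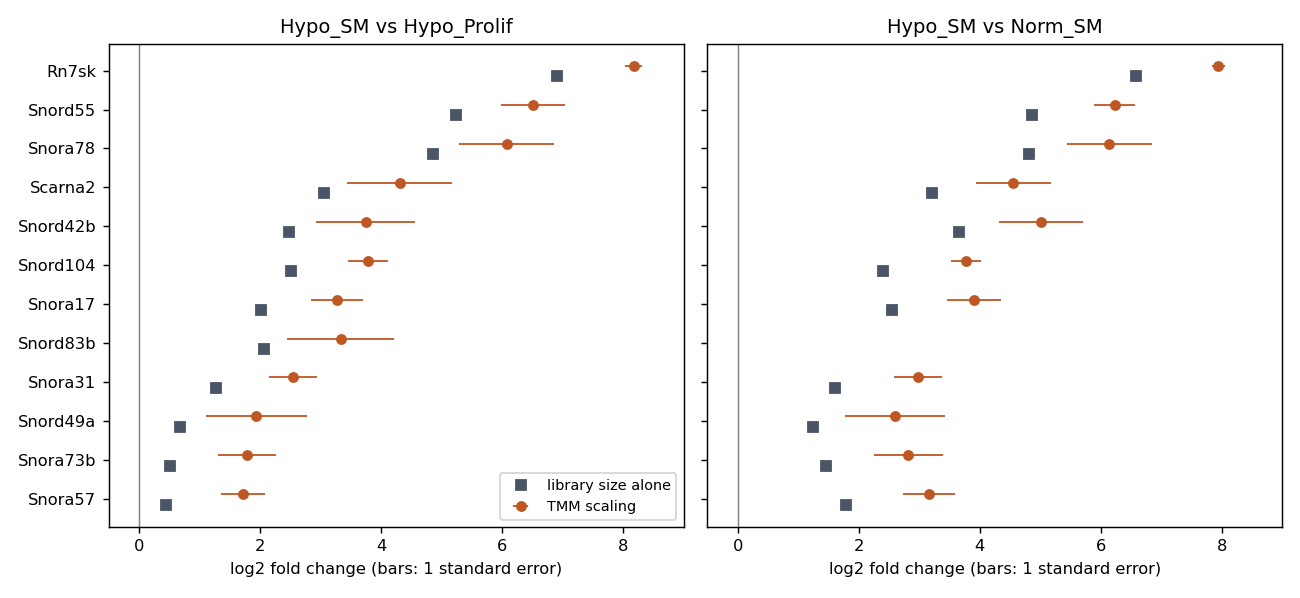
Log2 fold changes of Hypo_SM against Hypo_Prolif (left) and Norm_SM (right) for 12 members; circles use TMM scaling with 1 standard error and squares use library size alone. No test is marked, since Rn7sk was chosen for its level in Hypo_SM and 7 of the members tested in each comparison averaged under 10 counts in the second group. Rnu5g is left out because the compared groups hold 0 counts, and Snord83b was not tested against Norm_SM; Rn7sk is highest at 8.17 and 7.94, and Snora57 is lowest on the left at 1.72.

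Against Hypo_Prolif, 13 members were tested, of which 12 were called higher and 0 lower, where 33.8% of all genes were higher and 36.2% lower. Against Norm_SM all 12 tested members were higher and 0 lower (all genes 35.4% and 40.2%). In each comparison 7 of the tested members averaged under 10 counts in the second group, and those could pass the filter only through Hypo_SM, so these counts and the fold changes of such members are a description and support nothing further. The median log2 change of the tested members was 3.75 and 4.23, also with Rnu5g set at its bound, and that of all genes tested was -0.07 and -0.12. Library size alone moved that median of all genes to -1.35 and -1.49 and called 10 and 11 members higher. It also moved the higher share of all calls from 48.3% to 15.0% against Hypo_Prolif and from 46.8% to 15.6% against Norm_SM.

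Most host genes of these RNAs were higher as well. Of the 9 ribosomal protein hosts, all 9 were higher in Hypo_SM than in Norm_SM, by 3.11 to 4.81 on the log2 scale, and by 1.74 to 3.45 with library size alone. Of 25 tested hosts, 21 were higher and 3 lower, with a median of 3.11, beside 35.4% and 40.2% of all genes. With library size alone 15 were higher and 9 lower, with a median of 1.74. Tpt1 was 3.84 higher (SE 0.08) where Snora31 was 2.98 higher (SE 0.40). Host 2410006H16Rik was 5.00 higher (SE 0.09) where Snord49a was 2.60 higher. Among noncoding host genes, 13 of 14 tested were higher, and with library size alone 10 were higher and 1 lower. Snhg15 was 5.49 higher (SE 0.18), Snhg12 was 4.77 higher (SE 0.09) and Gas5, a host of many box C/D RNAs, was 4.05 higher (SE 0.08).

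Other RNAs that moved in the Hypo_SM libraries are given for comparison. The mitochondrial ribosomal RNAs mt-Rnr1 and mt-Rnr2 were 8.71 (SE 0.12) and 8.94 (SE 0.11) higher than in Norm_SM on the log2 scale. Of 41 tested replication-dependent histone genes, whose messages end in a stem-loop in place of a poly(A) tail, 36 were higher and 4 lower, with a median of 4.36, beside 35.4% and 40.2% of all genes. Under scaling by library size 32 were higher and 5 lower. Malat1 and Neat1, long RNAs kept in the nucleus, were 1.27 (SE 0.18) and 1.22 (SE 0.17) higher, and -0.10 and -0.15 with library size alone. The 8 core snoRNA proteins were all higher than in Norm_SM, with a median of 1.12, but with library size alone 2 were higher and 4 lower. Fbl (2.23, SE 0.11) and Nhp2 (1.79, SE 0.10) were higher under both scalings. The part that the makeup of these libraries plays in the members' values was not tested.

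Whether the step from proliferation to smooth muscle medium differed between oxygen levels was tested as an interaction. All 15 tested members had a higher change at 0.5% than at 21% O2 and 0 a lower one, where 34.9% and 35.5% of all genes did. Rn7sk was chosen for its level in Hypo_SM and Rnu5g is a member only through it. Snora78 and Scarna2 held 4 and 7 counts in Hypo_Prolif and 6 and 9 in Norm_SM. The count of 15 is therefore a description and supports nothing further. The members did not share 1 pattern at 21% O2, where Rn7sk rose (0.83), Snora57 fell, and Snord104 and Snord55 did not pass (-0.42 and -0.84). Snora57 fell from 3.28 to 0.468 CPM at 21% O2 and rose from 1.33 to 4.06 CPM at 0.5% O2, a difference of 4.45 on the log2 scale (SE 0.46, edgeR adjusted p = 1.81e-08). For Snord104 the difference was 4.18 (SE 0.46) and for Snord55 it was 7.36 (SE 0.75). The rise of Snora57 at 0.5% O2 did not pass with library size alone, as given above, but the interaction did (3.11). With library size alone 14 of the 15 passed, Snord42b being the one that did not, and the higher share of all calls moved from 49.6% to 16.6%. The same 3 Hypo_SM libraries enter this test and the 2 comparisons above.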

How the data were processed

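RNA was measured by sequencing in 28 libraries of O9-1 cells. The authors deposited raw counts per gene, and the processing notes of the submitters name HISAT2 2.0.5, StringTie 1.3.3b, featureCounts 1.5.0-p3 and build mm10; the annotation, multi-mapped reads and strand setting are not given in the sources used here, so overlapping and antisense genes could not be told apart. Per the file headers, 10 further deposited tables hold log2 fold changes per gene; they supplied symbols and the few values credited to the authors. The members and gene lists were chosen with earlier results of these data known.

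Counts were fitted with edgeR 4.0.16 (R 4.3.3): filterByExpr (about 10 counts in the smaller group), TMM scaling and a robust quasi-likelihood test with Benjamini-Hochberg adjustment over all genes tested, each comparison on its own groups; called means an adjusted p below 0.05. CPM values use TMM factors over all 28 libraries. DESeq2 1.42.0 and limma 3.58.1 (voom), other scalings and filters, and leaving out each library were alternatives; adding Snora20 was an alternative chosen after seeing the data. Genes named were Rn7sk and all Rnu and Scarna members, the 10 members with the highest mean CPM outside Hypo_SM, and up to 3 called members per direction and comparison; others, such as Snord110 and the members at 0, were named after their values were seen, and Snora78 also passed under the interaction rule. GENCODE M21 gave positions and sequences. The fits were first tested on simulated data. No 2 replicates agreed within counting noise (lowest chi-square per degree of freedom 2.89). Counting limits cover counting error only, since the sources used here name no molecular identifiers. Some sequences and 1 host gene are not reported here.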

Additional observations from a re-analysis of the deposited data

Results flagged for a closer look

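The change from proliferation to smooth muscle medium differed between 0.5% and 21% O2 for the 15 members tested, by edgeR's interaction term (3 or 4 libraries a group, adjusted p below 0.05). Rn7sk was chosen for its level in Hypo_SM, Rnu5g is a member only through Hypo_SM, and Snora78 and Scarna2 hold few counts in the other groups, so the values are a description. The differences of log2 changes were 7.34 for Rn7sk, 7.36 for Snord55, 8.68 for Snora78, 4.18 for Snord104, 4.45 for Snora57, 4.46 for Snora17, 4.04 for Snora31, 4.38 for Snora73b, 4.52 for Snord49a, 3.93 for Snord72, 4.16 for Snord17, 4.11 for Snord83b, 3.97 for Snord42b and 4.25 for Scarna2. For Rnu5g the fitted difference was 10.07; 3 of its 4 groups hold 0 or 1 count, so that value depends on the prior count and is no bound, and without Norm_Prolif replicate 4 its adjusted p was 1.00. No library stood far from the others in the 24 gene and group combinations of 4 libraries that were examined.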

How the results depend on the processing

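Of 91 results on named members, 1366 of 1398 alternative fits kept the side of the threshold, 9 lost a call and 23 gained one. In 0 fits did a called difference reverse direction. Differences that were not called could change sign, as Rn7sk did in Norm_Chondr against Norm_Prolif (-0.18 to 0.33). Of 62 calls, 55 held in every alternative run. The number of members called depended on the count filter. With no filter it was 15, 17 and 20 in Norm_Chondr, Norm_Osteo and Norm_SM against Norm_Prolif (5, 6 and 6 as reported), 8 in Hypo_Osteo against Hypo_Prolif and 8 in Hypo_Prolif against Norm_Prolif (5 and 5), 23 in Hypo_SM against Norm_SM (12) and 26 in the interaction (15). Requiring at least 10 counts in every library, which tests fewer members, gave 1, 2 and 3 in the normoxic comparisons, 0 in Hypo_Chondr and 1 in Hypo_Osteo against Hypo_Prolif, 6 and 4 in Hypo_SM against Hypo_Prolif and Norm_SM, and 4 in the interaction. A single fit over 8 groups called 8 in Norm_Chondr against Norm_Prolif, 8 in Hypo_Osteo against Hypo_Prolif and 1 in Hypo_Osteo against Norm_Osteo, and library size alone called 2 in Hypo_Chondr against Hypo_Prolif (Snora17 added), and added Snord104 in Norm_Osteo and Snord17 in Hypo_Prolif against Norm_Prolif; the cause was not tested. Leaving out 1 library at a time gave 5 to 9 calls in Norm_Chondr against Norm_Prolif (9 without Norm_Chondr replicate 4), 1 to 2 in Hypo_Chondr against Hypo_Prolif (2 without Hypo_Prolif replicate 2 and without Hypo_Chondr replicate 1 or 3) and 0 to 1 in Hypo_Osteo against Norm_Osteo (1 without Hypo_Osteo replicate 1). The share of counts in Hypo_SM, 0.0761%, was 0.00369% without Rn7sk and 0.0884% with mitochondrial genes left out of the total. Library size alone also moved the higher share of all calls from 50.3% to 34.7% in Norm_Chondr against Norm_Prolif, from 50.2% to 31.8% and from 50.8% to 38.2% in Hypo_Chondr and Hypo_Osteo against Hypo_Prolif, and from 46.9% to 31.8% and from 49.6% to 36.9% between oxygen levels in Chondr and Osteo. Same-numbered replicates did not deviate together (correlations from -0.16 to 0.11, with 0 of 10 comparisons above 0.1 in every pair), so they share only a number. A replicate block called 1 member in Hypo_Chondr against Norm_Chondr (0 without it), Rn7sk at an edgeR adjusted p of 0.0397. Among named members it also added Snord104 in Norm_Osteo and Snord17 and Snord55 in Hypo_Prolif, each against Norm_Prolif. It lost Snord49a in Hypo_SM against Norm_SM.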
